A study of Drosophila melanogaster with 20 samples.

Results

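The genes that encode the subunits of respiratory complex I (NADH:ubiquinone oxidoreductase) were followed across 20 Affymetrix DrosGenome1 arrays of adult male Drosophila melanogaster. Members were the probe sets whose annotation names a single gene with a current symbol that begins with ND-, older names being resolved by synonym, with 1 probe set kept for each gene. The rule found 31 of the 40 such genes in the RefSeq gene table, on an array of 14010 probe sets that name 10827 genes singly. Of the 31 genes, 26 are conventional subunits and 5 are paralogs, second copies of a subunit gene (ND-20L, ND-24L, ND-51L1, ND-51L2 and ND-B14.5AL). The other 9 symbols (ND-13B, ND-23, ND-24, ND-30, ND-49, ND-49L, ND-AGGG, ND-B15 and ND-MLRQ) and the subunits of the mitochondrial genome were not analysed here.

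Each of 5 groups held 4 arrays, and each array was hybridized with RNA of 30 males. For the MnSOD line, rtTA(3)E2 flies were crossed to MnSOD(2)22, which carries the transgene, so that doxycycline (DOX) in the food switches on extra manganese superoxide dismutase. The control line was the progeny of Oregon R and the same rtTA(3)E2 line, and therefore carried the transactivator without the transgene. MnSOD flies were sampled without DOX at day 73, with DOX at day 73, and with DOX at day 83, when about as many of them survived as of untreated flies at day 73. Control flies were sampled with and without DOX at day 73 by the sample labels and at day 78 by the series description. All flies received ampicillin according to the methods, rtTA acts in all tissues, and MnSOD(2)22 is 1 insertion line among several. Replicates are labelled as biological, without a statement on separate cultures, and p-values therefore refer to the spread among these samples alone.

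Complex I is the entry point of electrons from NADH into the mitochondrial respiratory chain. Its matrix arm holds the N module, where NADH is oxidized, and the Q module, where ubiquinone is reduced. Its membrane arm pumps protons, and the energy released by the reaction drives that pumping. The complex is also a main site of superoxide formation in mitochondria, and manganese superoxide dismutase turns superoxide in the matrix into hydrogen peroxide. Flight muscle is rich in the complex, and in Drosophila many duplicated nuclear genes of the respiratory chain are expressed mainly in testis.

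Sod2, the endogenous and transgenic manganese superoxide dismutase, checked the labels of the MnSOD line. Its log2 value was 8.36 to 8.47 in MnSOD -DOX day 73, 12.36 to 12.61 in MnSOD +DOX day 73 and 12.22 to 12.26 in MnSOD +DOX day 83. It was 7.38 to 7.67 in control -DOX and 7.59 to 8.14 in control +DOX, groups that overlapped (difference 0.38, exact permutation test, two-sided p = 0.0857), so Sod2 did not check which control group was fed DOX. Some arrays stood apart by other measures. Control +DOX replicates 1 to 3 had a mean spike-in signal of 7.98 to 8.41 against 9.36 to 10.24 on the other 17 arrays, and their 18S signal was 3.94 to 8.84 against 3.34 to 3.73. The signal at the 3' end of control transcripts minus that at the 5' end was 1.96 to 3.35 in control -DOX, 1.05 to 1.88 in control +DOX, 1.40 to 1.80 in MnSOD -DOX day 73, 1.51 to 1.70 in MnSOD +DOX day 73 and 1.72 to 2.18 in MnSOD +DOX day 83. MnSOD +DOX day 83 replicate 1 had the lowest array median, 5.49 against 5.56 to 5.68. All values here are log2 values after RMA (robust multichip average) normalization, and a difference is a log2 change.

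With MnSOD induced at day 73, all 31 complex I genes had a higher group mean than in MnSOD -DOX at the same age, by 0.03 (ND-B14.7) to 0.28 (ND-51) on the log2 scale. The median change was 0.15, against -0.001 over all probe sets, of which 49.5% had a positive change. With quantile normalization or a spike-in covariate 30 of 31 were positive, since ND-B14.7 then had -0.02, with a median of 0.11 in both. A gene counts as called where limma gave an adjusted p below 0.01 with a change of 1.2-fold or more. None of the 31 genes was called, where 0.200% of all probe sets were called higher and 0.464% lower. At an unadjusted p under 0.05, 8 of the 31 were higher and 0 lower, against 6.42% and 3.75% of all probe sets. The values of the 4 treated arrays lay entirely above those of the 4 untreated arrays for 15 of the 31 genes and entirely below for 0, against 7.83% and 5.06% of all probe sets. All 15 were conventional subunits, and 4 of the 5 paralogs had low mean levels, of 5.38 to 6.26. All 10 testis markers had a positive change (median 0.27, 0 called), and all 6 accessory gland markers were negative and uncalled. Of 5 gut markers, 4 were positive and 1 was negative, at -0.30. At an unadjusted p under 0.05, 3 gut markers were higher. Of these, alphaTry, a digestive trypsin, was called at 0.46 (limma adjusted p = 0.00025). Flight muscle markers had a mean level of 8.01 to 8.36 with DOX and 8.04 to 8.19 without. The part of these cell types in the result was not tested. The members were measured on the same arrays, so their count is not a count of independent observations. Because DOX both feeds the drug and switches on the transgene, the 2 cannot be told apart in this comparison. In whole flies, a change in the number of cells of a type and a change in RNA per cell cannot be told apart either.

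The higher group mean did not rest on single arrays. When each gene was expressed as its deviation from its own mean over the 20 arrays, the median deviation of the 31 genes was 0.07 to 0.14 in the 4 MnSOD +DOX day 73 arrays. It was -0.04 to -0.02 in the 4 MnSOD -DOX day 73 arrays, so the groups did not overlap. The same median spread far more within the other groups, from -0.18 to 0.08 in control -DOX, from -0.19 to 0.10 in control +DOX and from -0.16 to 0.06 in MnSOD +DOX day 83. The 2 groups of MnSOD flies at day 73 thus had the smallest replicate spread, with an SD of 0.01 and 0.03 (n = 4 each) against 0.11 to 0.14 in the others. The 3' minus 5' signal of these 2 groups overlapped and differed by 0.01 (exact permutation test, two-sided p = 0.886), and the spike-in mean differed by -0.21 (p = 0.114), where 0.0286 is the smallest p that 4 arrays against 4 allow.

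**Figure D1:**
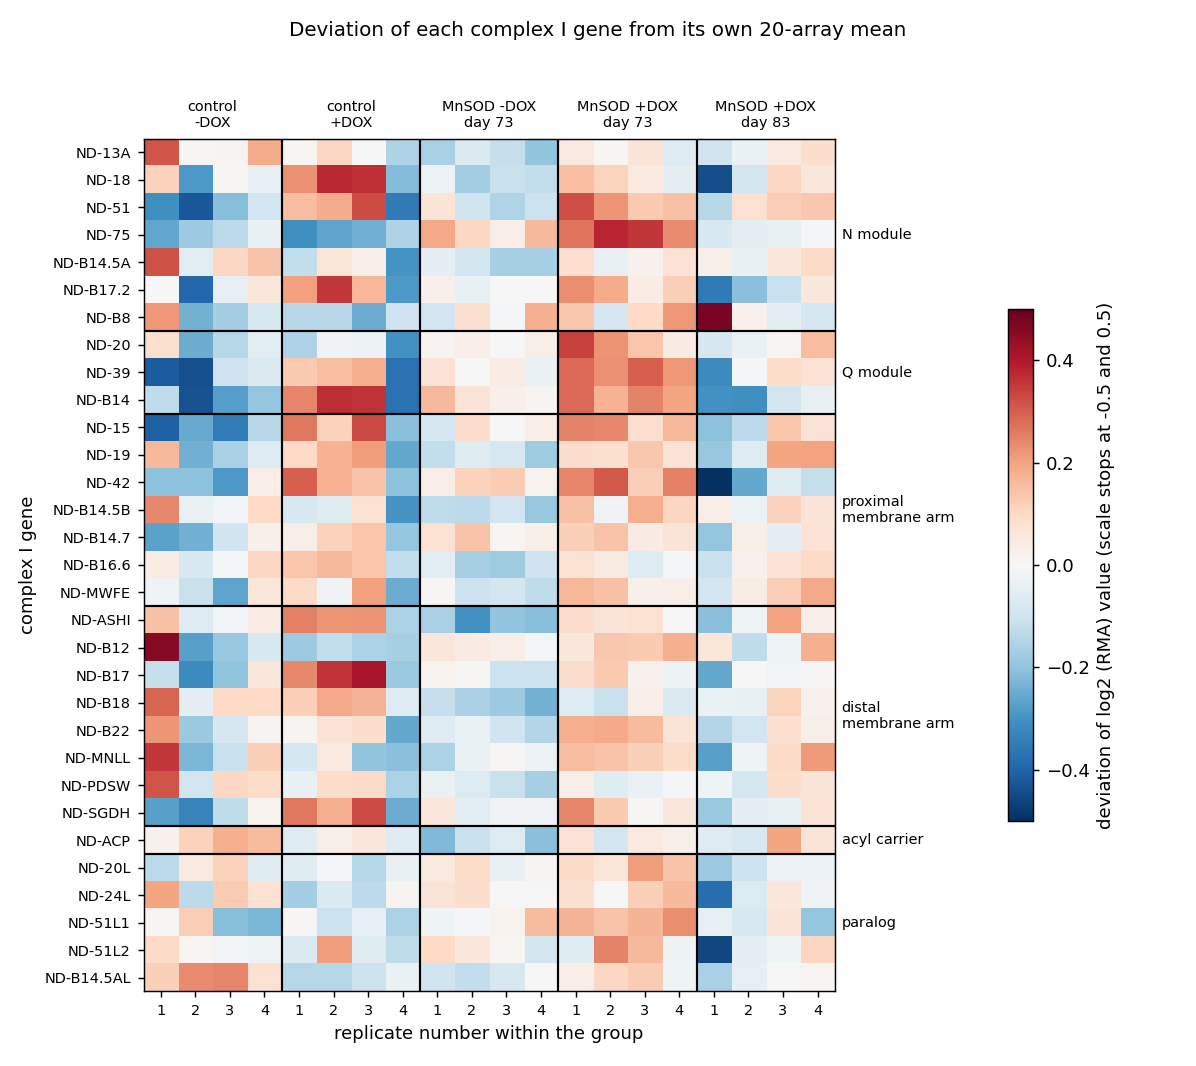
Heat map of the 31 complex I genes (rows, by position in the complex) on the 20 arrays (columns, by group and replicate number), where colour gives the deviation of the log2 value from the gene's own mean over all arrays. The 4 columns of MnSOD +DOX day 73 are above the mean for most genes. The columns of MnSOD +DOX day 83 replicate 1, control +DOX replicate 4 and control -DOX replicate 2 have the lowest median deviations (-0.16, -0.19 and -0.18). Control -DOX replicate 3, MnSOD +DOX day 83 replicate 2 and the 4 columns of MnSOD -DOX day 73 are also below the mean for most genes, by less.

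**Figure D2:**
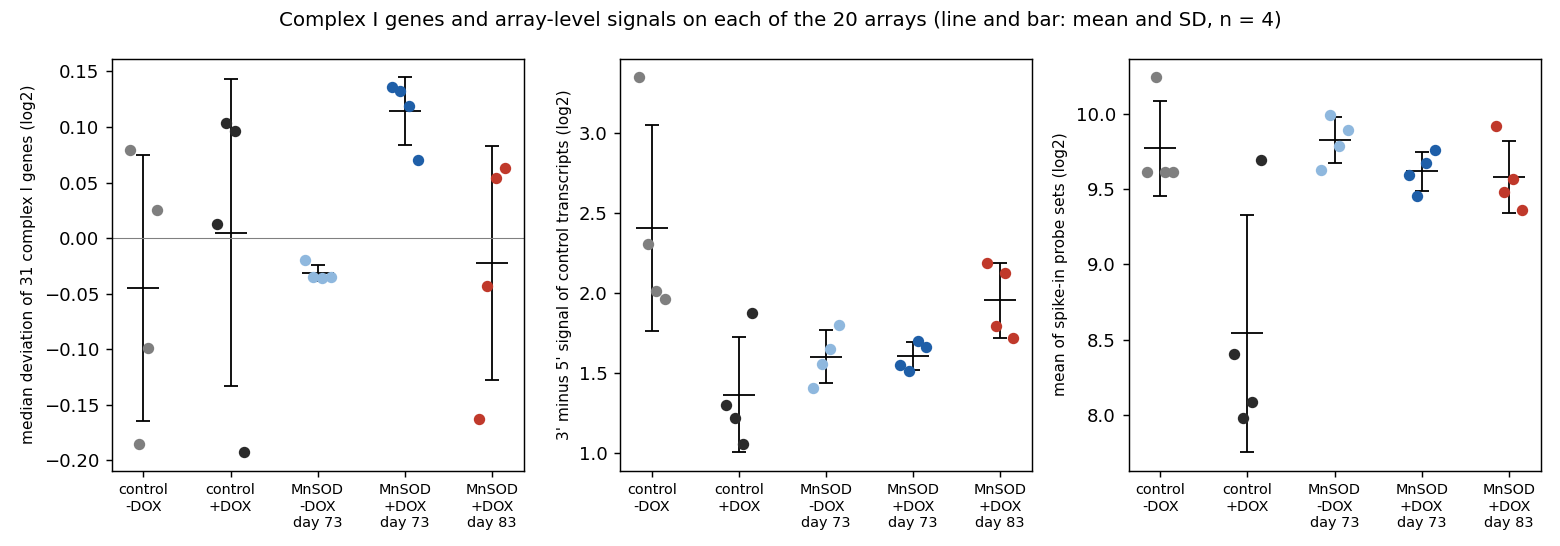
Each point is 1 array, and lines and bars give the mean and SD of 4 arrays. The left panel shows the median deviation of the 31 genes (log2), 0.07 to 0.14 in MnSOD +DOX day 73 and at most 0.10 in every other group, and the middle and right panels show the 3' minus 5' signal and the spike-in mean (log2), where control +DOX replicates 1 to 3 are lowest.

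Of the core subunits that carry out the reaction, 3 had a probe set, ND-51 and ND-75 in the N module and ND-20 in the Q module. ND-51 carries the flavin that takes electrons from NADH. Its log2 values were 9.44, 9.28, 9.22 and 9.27 in MnSOD -DOX day 73 and 9.70, 9.60, 9.51 and 9.52 in MnSOD +DOX day 73. In MnSOD +DOX day 83 they were 9.24, 9.45, 9.50 and 9.51. The day 73 groups did not overlap, and day 83 overlapped with both. Control -DOX arrays gave 9.07, 8.95, 9.16 and 9.28, and control +DOX arrays 9.53, 9.56, 9.70 and 9.02, where replicate 4 alone lay among the untreated values. The change at day 73 was 0.28 (standard error 0.11, limma adjusted p = 0.316) and did not pass the test.

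ND-75, the largest subunit, holds several of the iron-sulfur clusters that pass electrons on from the flavin. It was 9.19, 9.10, 9.03 and 9.16 in MnSOD -DOX day 73, 9.27, 9.38, 9.36 and 9.23 in MnSOD +DOX day 73 and 8.92, 8.95, 8.96 and 8.99 in MnSOD +DOX day 83. The 3 groups of the MnSOD line did not overlap, with day 73 under DOX highest and day 83 lowest. In control flies it was 8.74, 8.81, 8.87 and 8.96 without DOX and 8.69, 8.73, 8.76 and 8.84 with DOX. The control groups overlapped with each other, and both lay below both day 73 groups of the MnSOD line. ND-75 had a change of 0.19 at day 73 (standard error 0.06, limma adjusted p = 0.20), which did not pass the test.

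The other N module genes are supernumerary subunits, which surround the core. ND-18, whose human counterpart is altered in an inherited mitochondrial disease, had a change at day 73 of 0.17, and ND-B14.5A and ND-13A each had 0.15. ND-B17.2 had 0.15 and ND-B8 0.05, and ND-B8 was the only member among the 40% of probe sets with the lowest mean. Of the 7 N module genes, 5 had day 73 groups that did not overlap.

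ND-20 holds the last iron-sulfur cluster before ubiquinone. Its log2 values were 9.52, 9.54, 9.51 and 9.54 in MnSOD -DOX day 73, 9.85, 9.73, 9.65 and 9.55 in MnSOD +DOX day 73 and 9.43, 9.47, 9.52 and 9.66 in MnSOD +DOX day 83. The untreated arrays were nearly equal, and the lowest treated array lay just above them. It was 9.59, 9.26, 9.37 and 9.46 in control -DOX and 9.35, 9.49, 9.48 and 9.21 in control +DOX. Those 2 groups overlapped. The change at day 73 was 0.17 (standard error 0.08, adjusted p = 0.512 in limma). ND-39, which belongs to the short-chain dehydrogenase family, and ND-B14, which binds the acyl carrier protein, complete the measured Q module with changes of 0.24 and 0.16. All 3 genes had day 73 groups that did not overlap.

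In the membrane arm, the proximal part next to the matrix arm held 7 measured genes with day 73 changes of 0.03 to 0.24. ND-B14.5B had the largest (standard error 0.08, limma adjusted p = 0.166) and ND-B14.7 the smallest. ND-19 had 0.20, ND-15 0.18, ND-MWFE 0.17, ND-42 0.16 and ND-B16.6 0.14. The distal part held 8 genes, from 0.08 (ND-PDSW) to 0.27 (ND-ASHI, standard error 0.09, limma adjusted p = 0.163). The other distal genes were ND-B22 with 0.24, ND-MNLL with 0.18, ND-B18 and ND-SGDH with 0.12 each, ND-B17 with 0.10 and ND-B12 with 0.09. ND-ACP, the mitochondrial acyl carrier protein, which also serves lipoic acid and iron-sulfur cluster synthesis, had 0.17. The medians were 0.15 in the N module, 0.17 in the Q module, 0.17 in the proximal and 0.12 in the distal membrane arm.

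The size of the change could be set beside other nuclear genes of oxidative phosphorylation, taken mostly by symbol prefix, so that paralogs and a few assembly factors are included. All 7 genes of complex II, 7 of complex III, 15 of complex IV and 14 of ATP synthase also had a higher mean at day 73 under DOX. Their medians were 0.15, 0.15, 0.20 and 0.17, and none of these genes was called, while 3, 2, 8 and 8 of them were higher at an unadjusted p under 0.05. The 64 genes of the mitochondrial ribosome had a median of 0.05, with 54 of 64 positive. The 6 measured complex I assembly factors, which help to build the complex and do not stay in it, had a median of 0.09 with 5 of 6 positive. The 6 measured regulators of nuclear or mitochondrial transcription of mitochondrial genes had a median of 0.04 with 4 of 6 positive. The positive direction at day 73 was thus shared with complexes II to IV and ATP synthase, and the difference between these lists was not tested.

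At day 83, when survival of the treated flies matched that of MnSOD -DOX flies at day 73, the genes no longer had a common direction against those untreated flies. The median change was 0.01, with 16 of the 31 genes positive and 15 negative, against a median of -0.04 over all probe sets. None was called in limma, where 3.01% of all probe sets were called higher and 6.26% lower. At an unadjusted p under 0.05, 4 were higher and 3 lower, against 13.1% and 21.5% of all probe sets. The largest positive change was 0.22 in ND-ASHI (standard error 0.09, adjusted p = 0.0838), and the largest negative was -0.32 in ND-42 (standard error 0.10, adjusted p = 0.0324). ND-ASHI encodes a subunit of the distal membrane arm. With each array centred on its median the list's median was 0.09 and 22 of 31 were positive.

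**Figure D3:**
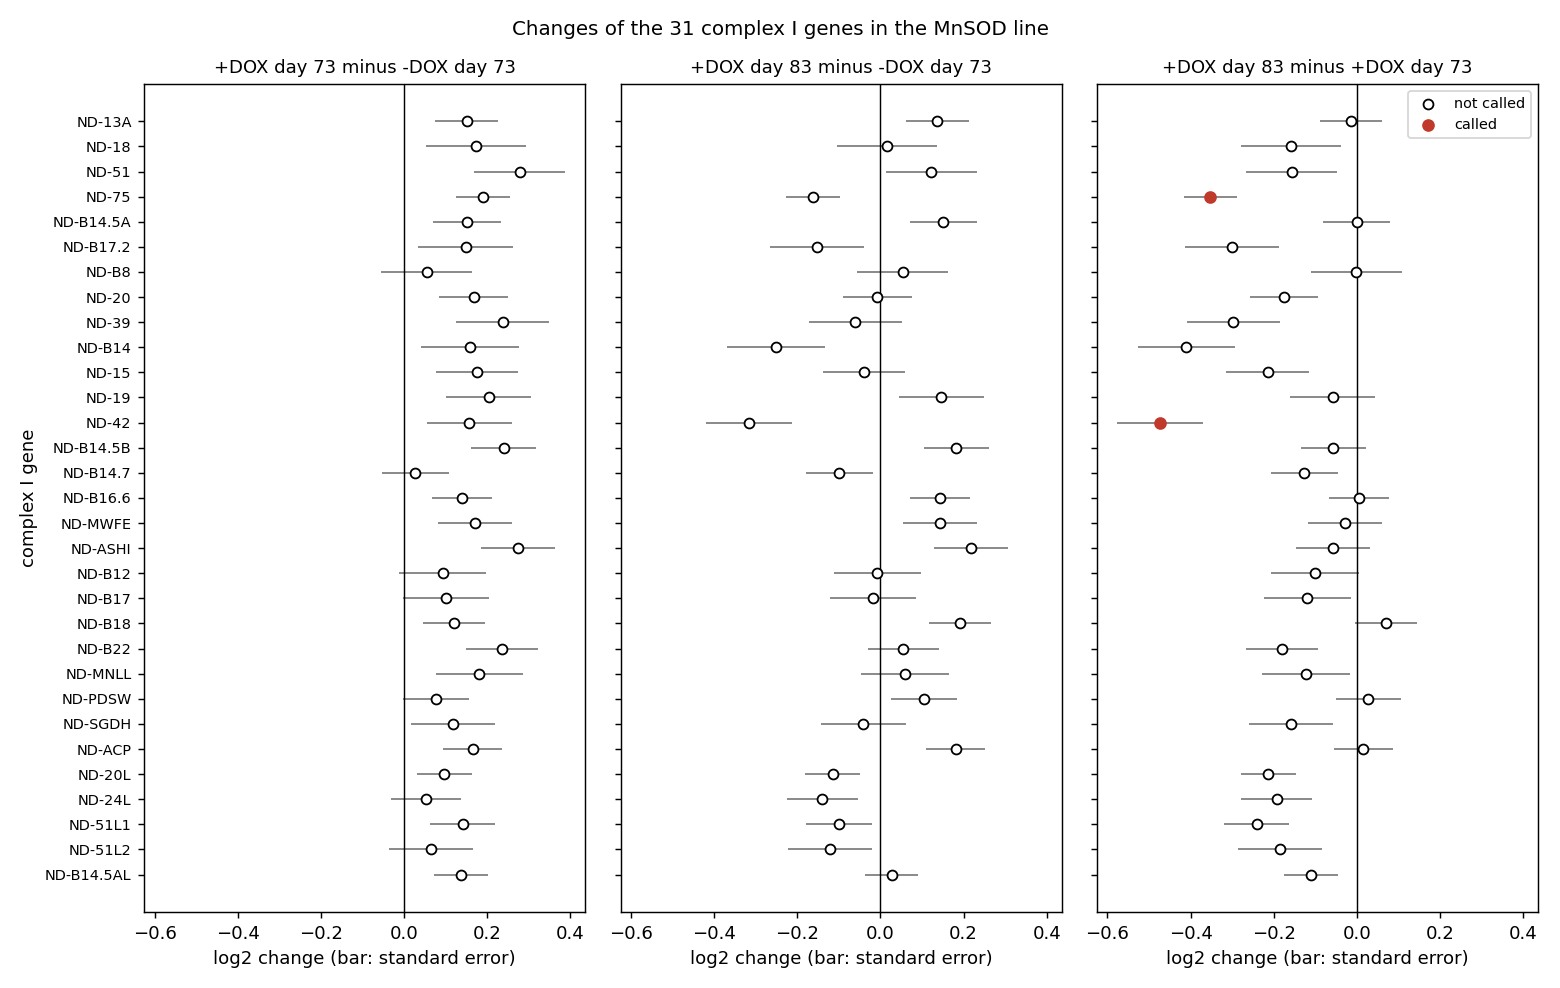
Log2 change (points) with its standard error (bars) for the 31 genes in the 3 comparisons of the MnSOD line, and filled points were called. All 31 points lie right of 0 at day 73, 16 do at day 83, and 27 lie left of 0 when day 83 is set against day 73, where ND-75 and ND-42 passed the test.

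Within the treated MnSOD flies, 27 of the 31 genes had a lower mean at day 83 than at day 73, with a median change of -0.13 against -0.04 over all probe sets. ND-75 and ND-42 were called lower and 0 genes higher, where 2.74% of all probe sets were called lower and 0.949% higher. Groups did not overlap for 6 genes, all lower at day 83 (ND-75, ND-42, ND-39, ND-B14, ND-20L and ND-51L1), against 14.8% of all probe sets lower and 7.01% higher, so this share was near the background. Accessory gland markers were lower as well, with 3 of 6 called (Acp26Aa -0.68, Acp62F -0.42 and Acp95EF -0.65), and their part was not tested. The 3 Q module genes had the lowest module median, -0.30. The N module had -0.16, with all 7 genes lower, and the proximal and distal membrane arms had -0.06 and -0.11. All 5 paralogs were lower, with a median of -0.19. With each array centred on its median, 20 of 31 were negative with a median of -0.05, and without MnSOD +DOX day 83 replicate 1, 22 of 31 with -0.07.

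ND-75 fell by 0.35 between day 73 and day 83 (standard error 0.06, limma adjusted p = 0.00195), and the values given above for the 2 groups do not overlap. ND-42, a proximal subunit that resembles deoxynucleoside kinases, was 8.47, 8.54, 8.35 and 8.48 in MnSOD +DOX day 73 and 7.69, 7.97, 8.17 and 8.11 in MnSOD +DOX day 83. MnSOD -DOX day 73 gave 8.26, 8.34, 8.36 and 8.25. All 4 arrays of day 83 were below all 8 arrays of day 73, replicate 1 by the most. In control flies ND-42 was 8.02, 8.03, 7.94 and 8.26 without DOX and 8.53, 8.40, 8.37 and 8.02 with DOX, again with replicate 4 low among the treated arrays. ND-42 fell by 0.47 from day 73 to day 83 (standard error 0.10, limma adjusted p = 0.00564).

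ND-B14 came next with -0.41 (standard error 0.12, adjusted p = 0.0257 in limma), which missed the threshold. It was 9.11, 9.00, 9.07 and 9.02 in MnSOD +DOX day 73 and 8.52, 8.51, 8.73 and 8.79 in MnSOD +DOX day 83, without overlap. ND-B17.2 and ND-39 each had -0.30, with limma adjusted p = 0.0763 and 0.0748. Over the same step the 3' minus 5' signal was higher at day 83 by 0.35 and the array median lower by 0.08, both without overlap between groups (exact permutation test, two-sided p = 0.0286 each). With that signal as a covariate ND-75 kept its call, with a change of -0.33 and limma adjusted p = 0.00565, over a range of 0.000322 to 0.0109 under the alternatives that keep all replicates or drop 3 control arrays. ND-42 had -0.41 and limma adjusted p = 0.0165 with it, over a range of 0.00042 to 0.017, and lost its call. ND-42 also lost it without any 1 of the 4 MnSOD +DOX day 73 arrays or without MnSOD +DOX day 83 replicate 1 or 2 (limma adjusted p at most 0.0215), and ND-75 kept its call without any single array. When the fit held only the 2 groups compared, neither gene was called.

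**Figure D4:**
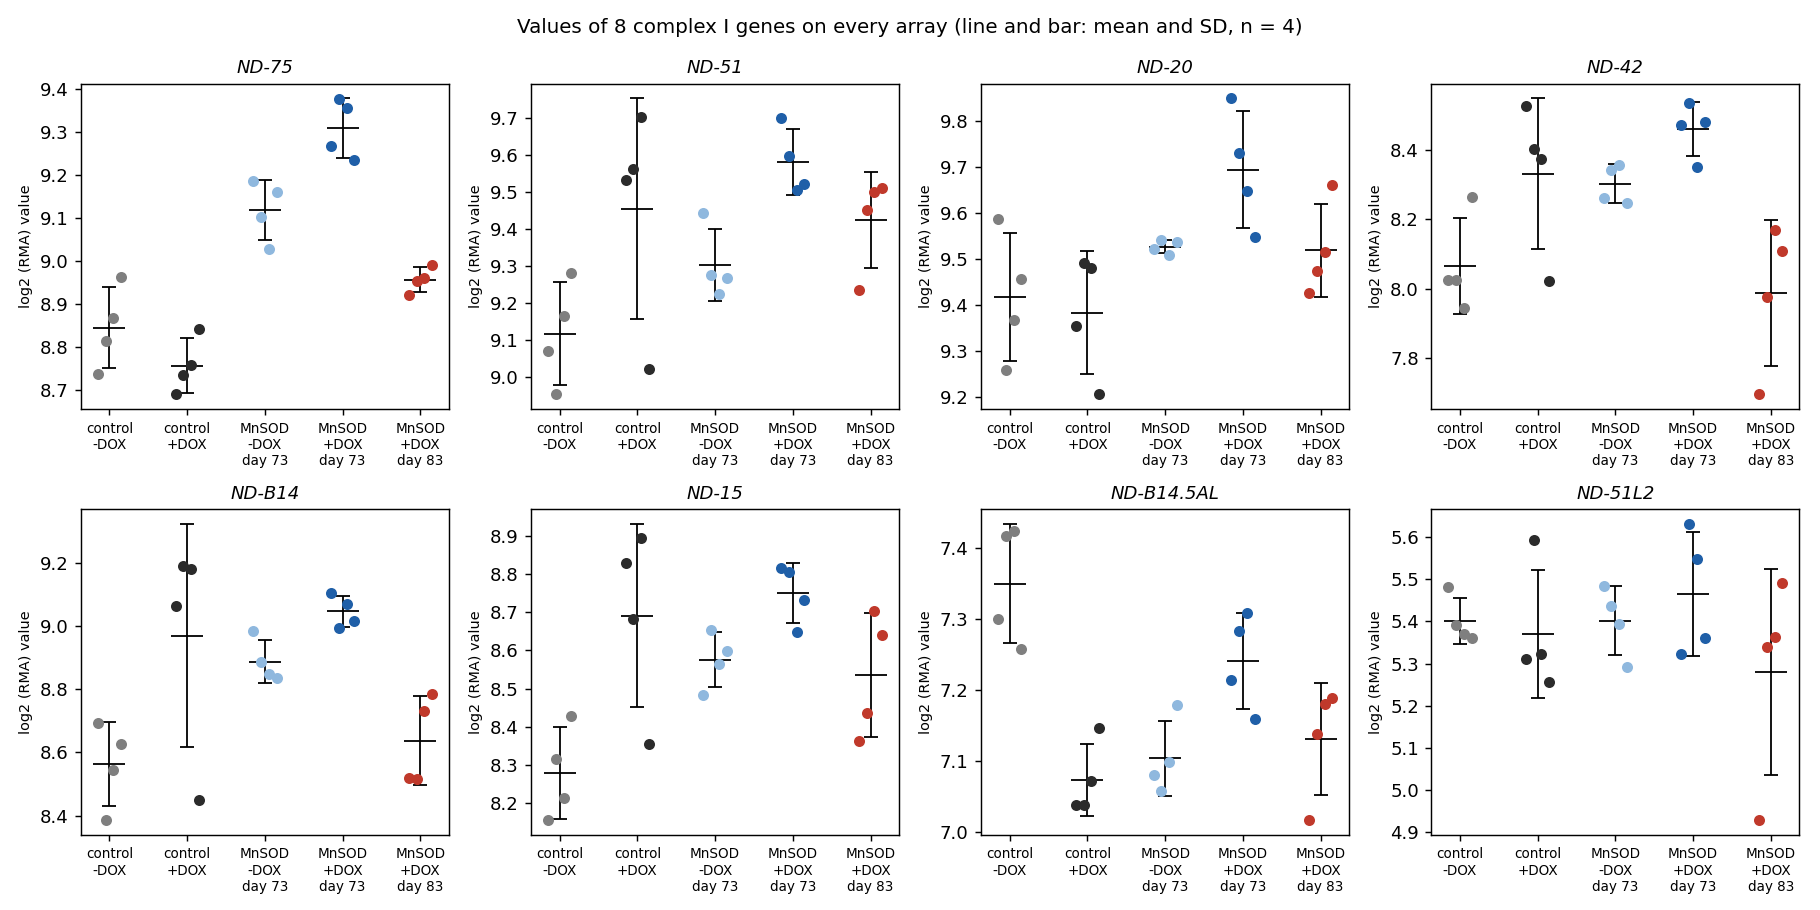
Log2 values (RMA) of 8 complex I genes on every array (points), with the mean and SD of 4 arrays (line and bar). ND-75 shows 3 separate levels in the MnSOD line, ND-42 and ND-B14 are lower at day 83 than at day 73 with DOX, and in control +DOX the 4 arrays of ND-51, ND-42, ND-B14 and ND-15 split into 3 high values and replicate 4.

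Without DOX, complex I genes of the MnSOD line and the control line differed in both directions, with 17 of the 31 higher in the MnSOD line, 14 lower and a median of 0.01. ND-75 was the only gene called, higher by 0.27 (standard error 0.06, limma adjusted p = 0.006), where 3.21% of all probe sets were called higher and 3.33% lower. The 4 values of the MnSOD line lay above the 4 of the control line. Sod2 was also higher in the MnSOD line without DOX, at 8.36 to 8.47 against 7.38 to 7.67 (difference 0.85, exact permutation test, p = 0.0286). The lines also differ in a parent strain and, by the series description, in age. The part of these differences in the call of ND-75 was not tested. ND-B18, ND-B14.5AL and ND-ACP were nearest to a call, at -0.29, -0.25 and -0.27 (limma adjusted p = 0.0116, 0.0123 and 0.0125). ND-13A had -0.27, and ND-B14, ND-15 and ND-39 had 0.33, 0.30 and 0.28, without a call. The 3' minus 5' signal was lower in the MnSOD line (difference -0.80, exact permutation test, two-sided p = 0.0286). With it as a covariate none of the 31 genes was called, where ND-75 had 0.22. With that covariate 132 of all probe sets were called higher and 223 lower, against 450 and 467 without it. The call of ND-75 was also lost with median centring (only ND-ACP was then called, lower), quantile normalization (0 higher and 4 lower), array weights (ND-B14 called higher and ND-ACP lower) and a fit of only the 2 groups compared (0 called). With the control groups exchanged ND-75 had 0.36 and was called, as were ND-ASHI and ND-B18, lower. ND-75 also lost its call without MnSOD -DOX day 73 replicate 1, 2 or 4 or control -DOX replicate 1, 2 or 3 (limma adjusted p at most 0.0264). Flight muscle markers moved too, since all 8 measured markers were higher in the MnSOD line at an unadjusted p under 0.05 and 3 (Act88F, TpnC4 and sls) were called, with a mean level of 8.04 to 8.19 against 7.26 to 7.59. Their part in the result was not tested.

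The genes that were higher in the MnSOD line without DOX tended to be those that were lower at day 83 than at day 73 with DOX, in 2 comparisons that share no array. Across the 31 genes, which are not independent replicates, Pearson's r was -0.76 and Spearman's rho -0.75. Over all 14010 probe sets r was -0.44 and rho -0.49, so a negative relation was general on these arrays. ND-75, ND-B14, ND-39, ND-42 and ND-15 were at one end, and ND-B18, ND-ACP, ND-13A and ND-B14.5A at the other. The 3' minus 5' signal moved in opposite directions in these comparisons (-0.80 and 0.35), and with it as a covariate r was -0.70. With the control groups exchanged r was -0.33 and rho -0.37. Leaving out single arrays gave r from -0.80 to -0.70. This pair had the strongest correlation among the computed pairs of comparisons that share no array. In the other pairs, the DOX change in control flies had r = 0.22 with the day 73 change of the MnSOD line. It had -0.34 with the day 83 change and -0.47 with the change from day 73 to day 83. Over all probe sets these were -0.18, -0.27 and -0.19.

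**Figure D5:**
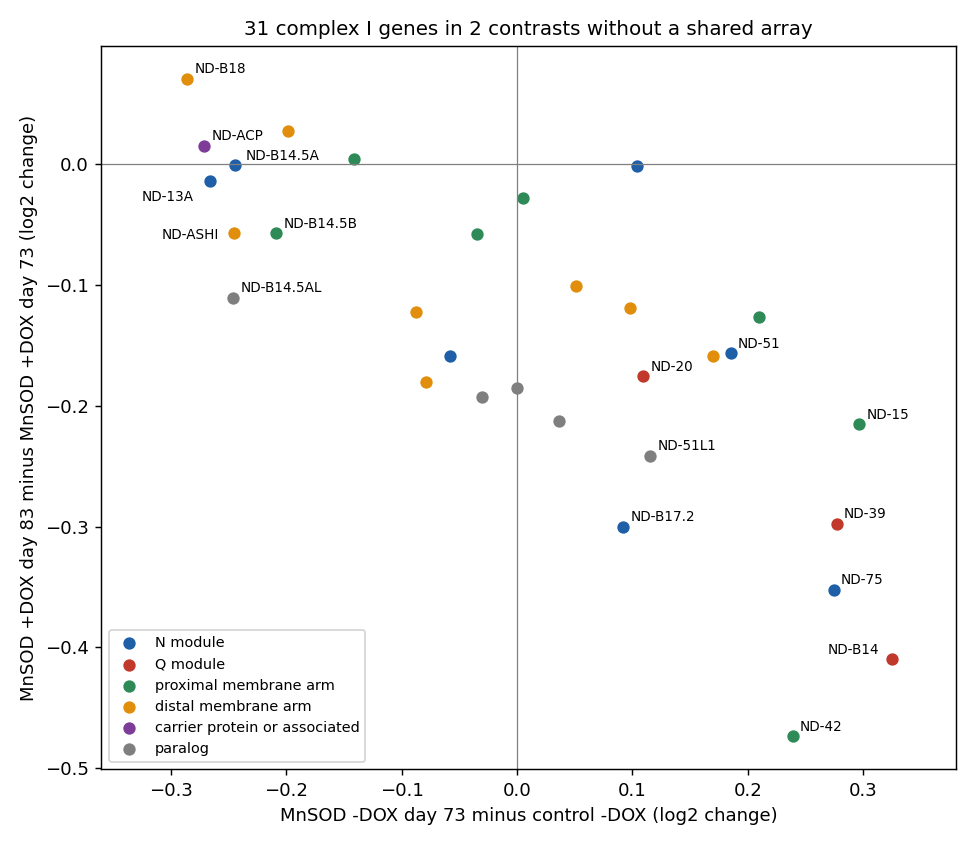
Each point is 1 of the 31 genes, coloured by its position in the complex, with the log2 change between the lines without DOX on the x axis and the log2 change from day 73 to day 83 with DOX on the y axis. The points run from ND-B18 at the upper left (-0.29 and 0.07) to ND-B14 and ND-42 at the lower right (0.33 and -0.41, 0.24 and -0.47).

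In control flies the direction of every DOX change follows the sample labels, and it opposes the direction in the study's own list of DOX-regulated genes. Exchanging the control groups turns each sign. Over all probe sets limma called 311 higher and 530 lower in the day 73 difference between the lines by the labels, and 656 and 642 with the groups exchanged. In the day 83 difference it called 1139 and 1329 by the labels, and 858 and 1471 with the groups exchanged. By the labels, ND-15, ND-B14 and ND-B17 were higher with DOX and ND-B14.5AL lower, with a median of -0.01 over the 31 genes. With quantile normalization 0 were called higher and 8 lower, with a median of -0.11, and with median centring 5 higher and 0 lower, with a median of 0.04. In this comparison 12.1% of all probe sets were called higher and 14.1% lower, so the 3 and 1 of 31 were no more frequent. ND-15, a small subunit with paired cysteines, was 8.83, 8.68, 8.89 and 8.36 in control +DOX and 8.16, 8.32, 8.21 and 8.43 in control -DOX, a change of 0.41 (standard error 0.10, limma adjusted p = 0.00251). ND-B14 was 9.06, 9.19, 9.18 and 8.45 against 8.69, 8.39, 8.54 and 8.63, also a change of 0.41 (adjusted p = 0.00836), and ND-B17 had 0.35 (adjusted p = 0.00973). In all 3 genes control +DOX replicate 4 lay within the range of the untreated arrays, and the other 3 lay above it. Replicates 1 to 3 are also the arrays of low spike-in signal. Against control -DOX, replicate 4 alone gave 0.08 for ND-15, -0.12 for ND-B14 and -0.04 for ND-B17. None of the 31 genes was called with a spike-in covariate or with a 3' minus 5' covariate. Over all 14010 probe sets, 80 were called higher and 21 lower with the spike-in covariate, and 130 and 36 with the 3' minus 5' covariate. The loss of calls was thus general on these arrays. With the 3' minus 5' covariate ND-15 had 0.18, ND-B14 0.24 and ND-B17 0.12, and ND-B14.5AL kept its value of -0.28 at a limma adjusted p = 0.0652. Without replicate 4 instead, 9 genes were called higher and 1 lower, where 2236 and 2812 of all probe sets were called.

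When the DOX change of the control line was subtracted from that of the MnSOD line at day 73, 21 of the 31 differences were positive, with a median of 0.14 against 0.07 over all probe sets. ND-B14.5AL alone was called, at 0.41 (standard error 0.09, limma adjusted p = 0.00402), against 2.22% of all probe sets called higher and 3.78% lower. ND-B14.5B with 0.40 (adjusted p = 0.0163) and ND-B14.5A with 0.36 (adjusted p = 0.0333) missed the threshold in limma. At day 83 the corresponding differences had a median of 0.02. ND-B14 (-0.66, standard error 0.17, adjusted p = 0.00489) and ND-42 (-0.58, standard error 0.15, adjusted p = 0.00432) were called lower in limma, against 9.49% of all probe sets lower and 8.13% higher. These differences contain the control arrays described above. With quantile normalization 7 genes were called higher and 1 lower at day 83, with a median of 0.14. Without control +DOX replicates 1 to 3, 1 array of that group remains, its spread is taken from the other groups, and on that array all 31 differences at day 73 were positive with a median of 0.33. With the control groups exchanged, ND-B14.5AL had -0.14, ND-B14 0.16 and ND-42 -0.05, none of them called, while ND-15 and ND-51 were called higher at day 73.

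The 5 paralogs had day 73 changes of 0.05 to 0.14 with a median of 0.10, and the day 73 groups overlapped in all 5, where 7.83% of all probe sets were apart and higher. Whether paralogs and conventional genes differ was not tested. Mean levels over the arrays were 5.38 to 6.26 for ND-51L2, ND-51L1, ND-24L and ND-20L and 7.18 for ND-B14.5AL, where array medians were 5.49 to 5.68. Apart from ND-B8, the lowest mean of a conventional gene was 7.07 (ND-18). At such levels the overlap alone does not set paralogs apart from conventional genes. ND-51L1, the first of the ND-51 copies, was 5.64, 5.66, 5.68 and 5.82 in MnSOD -DOX day 73, 5.83, 5.80, 5.83 and 5.89 in MnSOD +DOX day 73 and 5.62, 5.58, 5.72 and 5.47 in MnSOD +DOX day 83. The treated day 73 arrays lay above all day 83 arrays and overlapped with the untreated ones. It was 5.67, 5.78, 5.45 and 5.43 in control -DOX and 5.67, 5.55, 5.62 and 5.50 in control +DOX, which overlapped. ND-51L2 was 5.48, 5.44, 5.39 and 5.29 in MnSOD -DOX day 73, 5.32, 5.63, 5.55 and 5.36 in MnSOD +DOX day 73 and 4.93, 5.34, 5.36 and 5.49 in MnSOD +DOX day 83. In control flies it was 5.48, 5.39, 5.37 and 5.36 without DOX and 5.31, 5.59, 5.32 and 5.26 with DOX. All 5 groups of ND-51L2 overlapped, and day 83 replicate 1 was the lowest array.

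ND-20L, the copy of ND-20, was 6.31, 6.35, 6.23 and 6.28 in MnSOD -DOX day 73, 6.36, 6.32, 6.47 and 6.40 in MnSOD +DOX day 73 and 6.08, 6.16, 6.23 and 6.23 in MnSOD +DOX day 83. In control flies it was 6.13, 6.31, 6.38 and 6.20 without DOX and 6.20, 6.25, 6.12 and 6.23 with DOX. Day 83 lay below day 73 with DOX, by -0.21 (limma adjusted p = 0.0378), which missed the threshold. ND-24L was 5.91, 5.94, 5.85 and 5.85 in MnSOD -DOX day 73, 5.93, 5.85, 5.97 and 6.01 in MnSOD +DOX day 73 and 5.47, 5.78, 5.91 and 5.83 in MnSOD +DOX day 83. Control values were 6.05, 5.72, 5.98 and 5.93 without DOX and 5.68, 5.78, 5.72 and 5.86 with DOX. ND-24L is the copy of the core subunit ND-24, and its groups overlapped in every comparison made.

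ND-B14.5AL, the copy of the N module gene ND-B14.5A, was 7.30, 7.42, 7.42 and 7.26 in control -DOX and 7.04, 7.04, 7.07 and 7.15 in control +DOX. The control groups did not overlap, and it fell by 0.28 with DOX there by the labels (standard error 0.06, limma adjusted p = 0.00201). In the MnSOD line it was 7.08, 7.06, 7.10 and 7.18 without DOX, 7.21, 7.28, 7.31 and 7.16 with DOX at day 73 and 7.02, 7.14, 7.18 and 7.19 at day 83. Control -DOX lay above control +DOX, MnSOD -DOX day 73 and MnSOD +DOX day 83 and overlapped with MnSOD +DOX day 73. Testis markers, genes of sperm structure and spermatogenesis, moved in these flies as well. Of 10 markers, 9 were higher with DOX at day 73 at an unadjusted p under 0.05, and 8 were called higher at day 83. Compared without DOX, 7 were called lower in the MnSOD line and 2 had positive changes without a call. Among control arrays as labelled, 4 markers were called lower after DOX feeding and 1, betaTub85D, was called higher (0.50). In the day 73 difference between the lines, 4 markers were called higher and 0 lower. The mean level of the 10 markers was 9.45 to 9.65 in MnSOD +DOX day 73 and 9.59 to 9.79 in MnSOD +DOX day 83. It was 9.17 to 9.43 in MnSOD -DOX day 73, 9.67 to 9.91 in control -DOX and 9.49 to 9.77 in control +DOX. At day 83 the markers had a median change of 0.44 against MnSOD -DOX day 73. Of the 5 paralogs, the 4 with low mean levels (5.38 to 6.26) had changes of -0.14 to -0.10, and ND-B14.5AL had 0.03. The part of testis RNA in these values was not tested.

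ND-MNLL, a small distal subunit, was the only gene with 2 probe sets, and they did not give the same calls. The probe set used had a day 83 change of 0.06, and the other had 0.31 (standard error 0.07, limma adjusted p = 0.00251) and was called. In control flies the pair had changes of -0.14 and -0.35, and the second of these was called. In the differences between the lines the other probe set had 0.56 at day 73 and 0.65 at day 83, both called, and the probe set used had 0.33 and 0.20, neither called. At day 73 in the MnSOD line both were positive and uncalled, 0.18 and 0.22.

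Among genes that serve complex I, 0 of the 6 assembly factors were called by limma in any of the 7 comparisons. At an unadjusted p under 0.05, 1 was higher with DOX in control flies, 1 higher at day 73, 1 higher and 1 lower at day 83, 1 lower between day 73 and day 83, and 0 in the others. Of the 6 regulators, mtTFB2, a factor for transcription of the mitochondrial genome, fell by 0.32 by the labels in control flies fed DOX (limma adjusted p = 0.0046) and was higher in the day 83 difference between the lines by 0.47 (adjusted p = 0.00473). mRpL12, a ribosomal protein that also binds the mitochondrial RNA polymerase, was higher there by 0.53 (limma adjusted p = 0.00353). Of all probe sets, 8.13% were called higher and 9.49% lower in that difference, and 12.1% and 14.1% with DOX in control flies. Of the 6, 0 were called in the 3 comparisons within the MnSOD line, where 1, 2 and 1 were higher and 0, 1 and 1 lower at an unadjusted p under 0.05. ATPsynbeta, the catalytic subunit of ATP synthase, rose by 0.42 in control flies fed DOX, again by the labels (limma adjusted p = 0.00466), and COX8 and Cox17, of complex IV and its assembly, fell by 0.38 and 0.39.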

How the data were processed

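The authors applied RMA (affy package) to the arrays, and the deposited log2 values form 1 table of 14010 probe sets and 20 arrays. The version of affy and a genome build are not given in the sources used here. Raw intensities were not analysed. Depth has no equivalent on arrays, and precision is limited by 4 arrays a group.

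Samples were grouped by the labels. The array annotation gave the genes, their symbols were brought up to date with the RefSeq gene table, and 12444 probe sets have 1 gene, 327 several and 1239 none listed. For genes with more than 1 probe set, that of the highest mean over the arrays was kept. All 20 arrays entered 1 linear model with 5 group means in limma 3.58.1 (R 4.3.3), with empirical Bayes moderation and Benjamini-Hochberg adjustment over all probe sets within each of 7 contrasts. Calls needed an adjusted p below 0.01 with a change of 1.2-fold or more, following the methods. Single array-level values were compared by exact permutation (scipy 1.17.1). The fit was tested on simulated data.

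The complex I genes and all lists were chosen with earlier results of these data known. Array values are given for core subunits, paralogs and members called within the MnSOD line, and those of ND-B14 and ND-15 were added after their values were seen. ND-B17 was also among the 12 genes screened for outlying arrays, though its array values are not all given. Other genes are named as at most 3 called members of a list. Members were placed by where the mammalian counterpart sits. In the cell type lists, 3 of 8 flight muscle markers were called higher with DOX in control flies, and accessory gland markers (4 of 6 called lower), neurons (1 of 4 lower), gut (1 of 5 higher and 1 lower), fat body (1 of 3 higher), eye (0 of 5, with 2 higher and 1 lower at an unadjusted p under 0.05) and yolk and eggshell genes (1 of 6 lower) were counted at day 83 in the MnSOD line.

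Alternatives were the control groups exchanged, only the groups compared, a replicate block, the lowest 40% of probe sets removed, median centring, quantile normalization, another variance model, array weights, an adjusted p under 0.05 without a fold, the other probe set, a spike-in covariate, control +DOX replicates 1 to 3 left out, each array left out, and, chosen after seeing the data, a 3' minus 5' covariate and the exchange in the comparison of the lines without DOX. Promoter sequences were not used here.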

Additional observations from a re-analysis of the deposited data

Results flagged for a closer look

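In 60 groups of 4 arrays (12 genes, namely those with array values above and ND-B17), 2 held a lowest array far from the other 3 by Dixon's criterion, where chance gives about 1 in 20. ND-B14 was 8.45 in control +DOX replicate 4, against 9.06 in the next array, and ND-B17 was 7.77 in MnSOD +DOX day 83 replicate 1, against 8.02.

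The DOX change differed between the lines, by the test of the difference itself in limma, for 3 genes. ND-B14.5AL differed by 0.41 at day 73, and at day 83 ND-B14 differed by -0.66 and ND-42 by -0.58. Of all probe sets 2.22% were called higher and 3.78% lower at day 73, and 8.13% and 9.49% at day 83. None of the 3 genes was called with the control groups exchanged, with the spike-in covariate or with the 3' minus 5' covariate. Over all probe sets 334 were called higher and 483 lower in the day 83 difference with the spike-in covariate. With the 3' minus 5' covariate these were 107 and 196, against 1139 and 1329 in the main fit, so the loss with covariates was general. The 3' minus 5' signal did not overlap between the control groups, so that fit cannot separate it from their DOX change.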

How the results depend on the processing

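Of the values for single genes, 427 kept their direction and their side of the threshold under the alternatives other than leaving out 1 array, 39 lost their call, 2 gained one and 8 changed sign. With 1 array left out, 797 were unchanged in this sense and 63 lost their call. These counts pool called values with uncalled ones, among them all 31 day 73 changes. An uncalled value counts as unchanged when it keeps its direction and stays uncalled, so the counts do not give the share of calls kept. The call of ND-B17 in control flies was kept in 5 of 11 alternatives and 3 of 20 fits without 1 array. That of ND-75 between day 73 and day 83 was kept in 10 of 11 and 20 of 20. With the spike-in covariate ND-B14 and ND-B17 changed sign in control flies (-0.1045 and -0.0813), as they did without control +DOX replicates 1 to 3 (-0.1155 and -0.0407). With the control groups exchanged ND-B14 had 0.16 in the day 83 difference and ND-B14.5AL -0.14 in the day 73 difference. ND-B14.7 had -0.0152 at day 73 with quantile normalization and -0.0153 with the spike-in covariate. The cause was not tested.

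The number of the 31 genes called by limma is given here as DOX in control flies (4), MnSOD line day 73 (0), day 83 (0), day 83 against day 73 (2), difference between lines at day 73 (1) and day 83 (2), and lines without DOX (1). With only the groups compared they were 0, 1 (ND-ASHI), 0, 0, 1, 1 and 0. With quantile normalization they were 8 (all lower), 0, 1, 2, 6 (all higher), 8 (7 higher) and 4 (all lower), with array weights 10, 1 (ND-51), 1, 3, 4, 7 and 2, and at an adjusted p under 0.05 with no fold 9, 0, 1, 5, 5, 8 and 7. With the spike-in covariate they were 0, 0, 2, 5, 2, 2 and 4, and with the 3' minus 5' covariate 0, 0, 0, 1, 0, 0 and 0. Without control +DOX replicates 1 to 3, which leaves 1 array of that group, assumed to vary like the other groups, they were 0, 0, 0, 3, 0, 0 and 3. Median centring gave 1 for day 83 against day 73, the filter on low values gave 2 for the lines without DOX, and the control groups exchanged gave 2 and 0 for the differences and 3 for the lines without DOX. The other probe set of ND-MNLL gave 5 with DOX in control flies, 1 at day 83, 2 in the day 73 difference and 3 in the day 83 difference. The calls over all 14010 probe sets also changed with the setting. With DOX in control flies they were 1692 higher and 1980 lower in the main fit and 2338 and 3074 with array weights. In the day 83 difference they were 1139 and 1329 in the main fit and 2159 and 1959 with array weights. The counts for the 31 genes are therefore not a measure of these genes alone.

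With single arrays left out the counts ran from 1 to 10, 0 to 0, 0 to 0, 1 to 3, 0 to 2, 0 to 8 and 0 to 3 in the same order. The highest counts in control flies, 10, and in the day 83 difference, 8, came without control +DOX replicate 4, and the day 83 difference had 0 without control +DOX replicate 1, 2 or 3. Without control +DOX replicate 4, 2236 of all probe sets were called higher and 2812 lower in control flies. In the day 83 difference 1771 and 1871 were then called. In the day 73 difference ND-B14.5AL lost its call without MnSOD -DOX day 73 replicate 1 or 2, MnSOD +DOX day 73 replicate 2 or 3 or control -DOX replicate 3.

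With the replicate number as a block the counts were 2, 0, 0, 2, 1, 2 and 1. Deviations of arrays with the same number had a mean correlation of -0.0075, with 6 of 40 pairs over 0.1, so the arrays share only a number.

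Groups of 4 arrays limit what can be called, and control +DOX replicates 1 to 3 bear on every comparison that holds the control +DOX group.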
